A study of Mus musculus with 18 samples.

Results

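Bone and cartilage lineage genes were examined as alternative fates of the multipotent 10T1/2 line. The 10 genes were selected by name out of 54532 genes in the deposited table: *Runx1*, *Runx2*, *Runx3*, *Sox5*, *Sox6*, *Sox9*, *Sp7*, *Alpl*, *Spp1* and *Acan*. 10T1/2 (CH310T1/2 in the labels, C3H10T1/2 in the design text) is a mouse fibroblast line that the labels class as mesenchymal stem cells. Cells were WT or FOXS1 KO, the latter as clones 1 and 2, each derived from a single cell after CRISPR-Cas9 cutting of the *Foxs1* exon, so a clone is 1 line and not a set of independent knockouts. Cells were maintained in DMEM with serum and antibiotics and grown past confluence. RNA was sequenced either from uninduced cells (treatment label Control) or from stimulated cells, which received TGF-β1 (1 nM, 12 h) and next the adipogenic mix DMII (48 h). DMII combines insulin, indomethacin, dexamethasone and the phosphodiesterase inhibitor IBMX. The study's methods name overnight serum starvation before TGF-β1 and a DMEM/Ham's F-12 mixture for induction, without saying which medium the uninduced cells were in at harvest, so effects of medium and of TGF-β1 + DMII cannot be told apart. WT, clone 1 and clone 2 had 3 libraries in each treatment, 18 in 6 groups, with 15576685 to 42005596 counts a library.

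Cartilage and bone arise from related mesenchymal progenitors. SOX9 commits such cells to the chondrocyte fate and, with SOX5 and SOX6, drives genes of cartilage matrix such as *Acan*, which encodes the proteoglycan aggrecan. RUNX2 commits cells to the osteoblast fate, acts upstream of *Sp7* (osterix), and shares its DNA-binding runt domain with RUNX1 and RUNX3. Alkaline phosphatase (*Alpl*) frees phosphate for mineral, and osteopontin (*Spp1*) is a secreted phosphoprotein of bone that many other cells also make.

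Levels below are CPM, counts scaled to a common library size with TMM, the trimmed mean normalization of edgeR, and means carry the SD of 3 libraries. A gene was called where the edgeR quasi-likelihood test gave a Benjamini-Hochberg adjusted p below 0.05 and the fold change was above 2. "Rose", "fell", "higher" and "lower" are used of calls. Nothing in the labels says that the 3 libraries of a group came from separate cultures, so the p-values measure the spread between these libraries, which may be technical. In bulk RNA, fewer cells of a type and less RNA per cell cannot be told apart. Of the 10 genes, 9 passed the filter on low counts (14317 genes tested), and *Sp7* did not.

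*Foxs1* had 2.23 ± 0.886 CPM in uninduced WT cells but 25.7 ± 2.04 in clone 1 and 22.6 ± 1.44 in clone 2, and 2.51 ± 0.641 against 54.5 ± 2.06 and 39.9 ± 2.59 after stimulation (each n = 3). Its RNA total therefore ran against the KO label in all 12 libraries labelled FOXS1 KO, and a total per gene does not show an edited sequence. The study reported loss of FOXS1 protein in both clones by western blot, and a disrupted locus by sequencing of genomic DNA. Neither is analysed here, and the directions given for the clones follow the labels. Of 11 fibroblast markers, each had counts in every group except *Nt5e* in stimulated clone 2, and their summed level lay between 34546 and 79863 CPM. The 12 haematopoietic and osteoclast markers summed to at most 4.14 CPM and the 6 endothelial markers to 5.09 to 7.92 CPM in uninduced WT and at most 1.35 CPM elsewhere, with *Ptprc* and *Tyrobp* at 0 in all libraries. Replicate 1 of uninduced WT stood apart from replicates 2 and 3. Its log2 CPM over the tested genes had a Pearson r of 0.963 and 0.969 with theirs, the lowest of all pairs within a group. *Msx2*, a bone and limb factor, had 5, 47 and 52 counts in these 3 libraries. Without replicate 1 no call of the 10 genes was lost. Osteocalcin (*Bglap*), which defines mature osteoblasts, had group means of 0 to 0.163 CPM, and bone sialoprotein (*Ibsp*) 0.0416 to 0.606 CPM. The osteocalcin copy *Bglap2* had more counts, with 22 in uninduced WT, 1 in stimulated WT and 45 in stimulated clone 2. Of 6 osteoblast markers (*Runx2*, *Sp7*, *Alpl*, *Bglap*, *Ibsp* and *Dmp1*) 4 were tested. Stimulation raised 2 of these in WT, 1 in clone 1 and 1 in clone 2, and lowered 1 in clone 1. Over all tested genes 6.25%, 5.95% and 6.46% were called higher in the same order, and 10.7% lower in clone 1.

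In response to TGF-β1 + DMII, WT cells raised *Alpl* and lowered *Sox5*, *Sox6* and *Acan*, 4 called genes of the 9 tested. Over all tested genes 19.9% were called, 6.25% higher and 13.6% lower. Clone 1 raised *Runx1*, *Sox5* and *Alpl* and lowered *Sox6* and *Spp1*, 5 genes against 16.7% of all genes (5.95% higher, 10.7% lower). Clone 2 raised *Runx1*, *Sox5* and *Alpl* and lowered *Sox6*, 4 genes against 17.7% (6.46% higher, 11.2% lower). *Alpl* rose and *Sox6* fell in all 3 genotypes. The median log2 fold change of the 9 genes was -0.02 in WT, -0.25 in clone 1 and -0.16 in clone 2, beside -0.04, -0.02 and -0.02 over all genes. With *Sox5* at the smallest change that its 0 counts allow and *Acan* left out, the clone 1 median was -0.33.

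**Figure D1:**
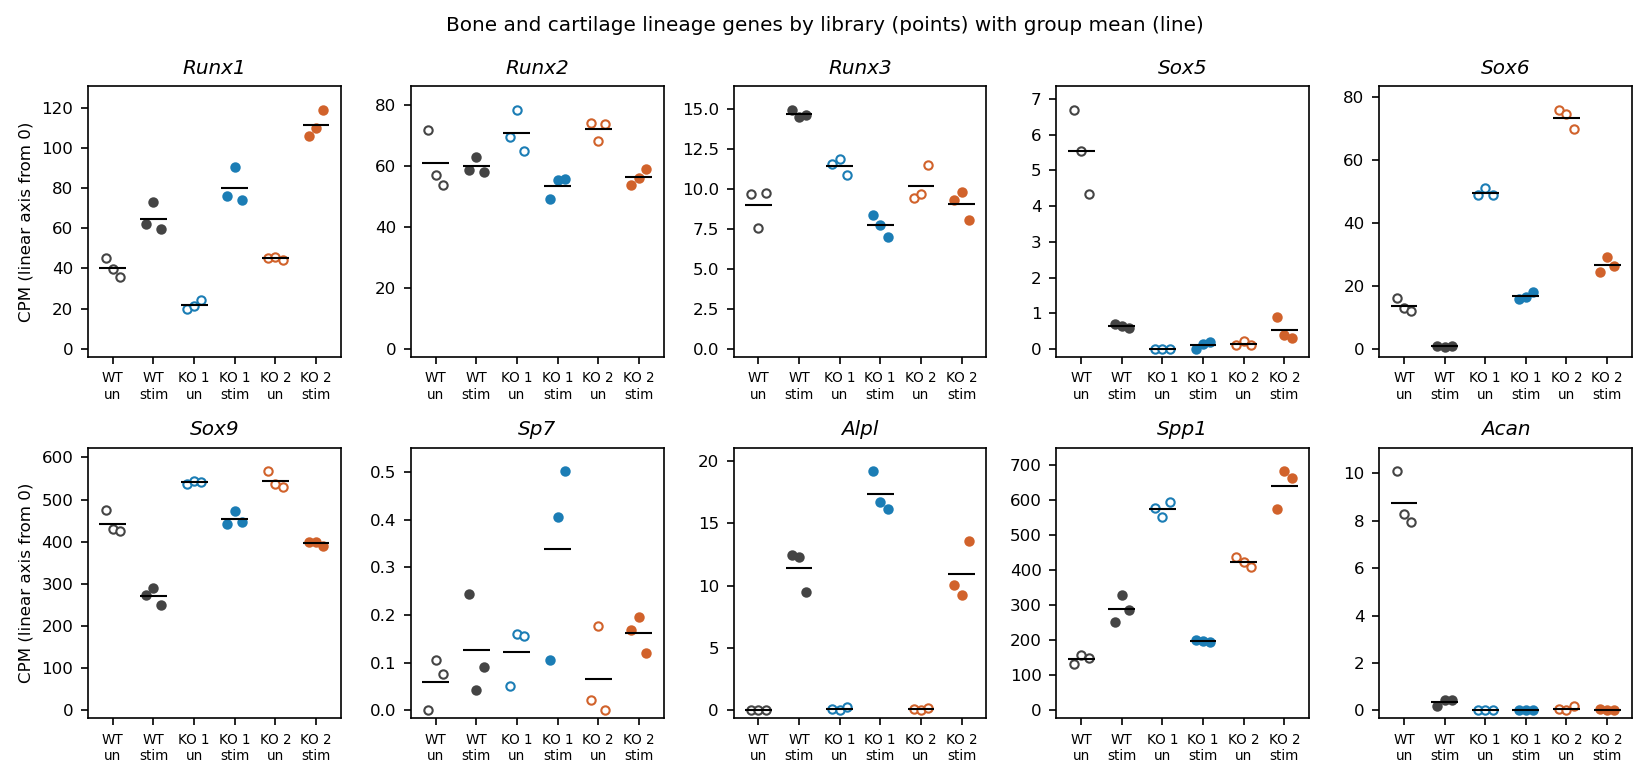
Level of each of the 10 genes (CPM, linear axes from 0) in every library, as points, with the mean of the 3 libraries as a line. Open points are uninduced and filled points stimulated cells. *Sox6* is higher in the clones in both treatments, *Acan* and *Sox5* are near 0 outside uninduced WT cells, and *Alpl* appears in stimulated cells of all genotypes.

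Set against WT in uninduced cells, clone 1 had 4 called genes (15.1% of all genes, 6.32% higher and 8.73% lower), and clone 2 had the same 4 genes (15.1% of all genes, 5.54% higher and 9.56% lower). *Sox6* and *Spp1* were higher and *Sox5* and *Acan* lower in both. Both comparisons use the same WT libraries, and 9.07% of all tested genes were called in the same direction in both. In stimulated cells 3 genes were called in clone 1, where *Sox6* was higher and *Sox5* and *Acan* lower, against 19.0% of all genes (9.42% higher, 9.60% lower). In clone 2, 3 genes were called, with *Sox6* and *Spp1* higher and *Acan* lower, against 16.9% (7.95% higher, 8.94% lower), and 1579 of 14317 genes were called the same way in both clones. *Runx2*, *Sox9* and *Sp7* were called in no comparison by edgeR, although *Sox9* and *Runx2* had adjusted p below 0.05 in several.

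Tests of the difference in response itself called 5 of the 9 genes between clone 1 and WT, 3 higher (*Runx1*, *Sox5*, *Sox6*) and 2 lower (*Runx3*, *Spp1*), against 8.81% of all genes (5.34% higher, 3.46% lower). Between clone 2 and WT they called *Sox5* and *Sox6*, 2 genes, both higher, against 7.85% (4.89% higher, 2.96% lower). The fold changes behind these counts are given gene by gene below. Compared directly, the clones differed in *Runx1* and *Sox5* when uninduced (2 genes, both lower in clone 1, against 8.67% of all genes, 4.89% higher and 3.78% lower) and in *Sox5* and *Spp1* when stimulated (2 genes, both lower in clone 1, against 9.98%, 5.50% higher and 4.48% lower). Their responses differed in *Spp1* (1 gene, lower in clone 1, against 3.02%, 1.54% higher and 1.48% lower), a comparison that was added after the values had been seen.

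**Figure D2:**
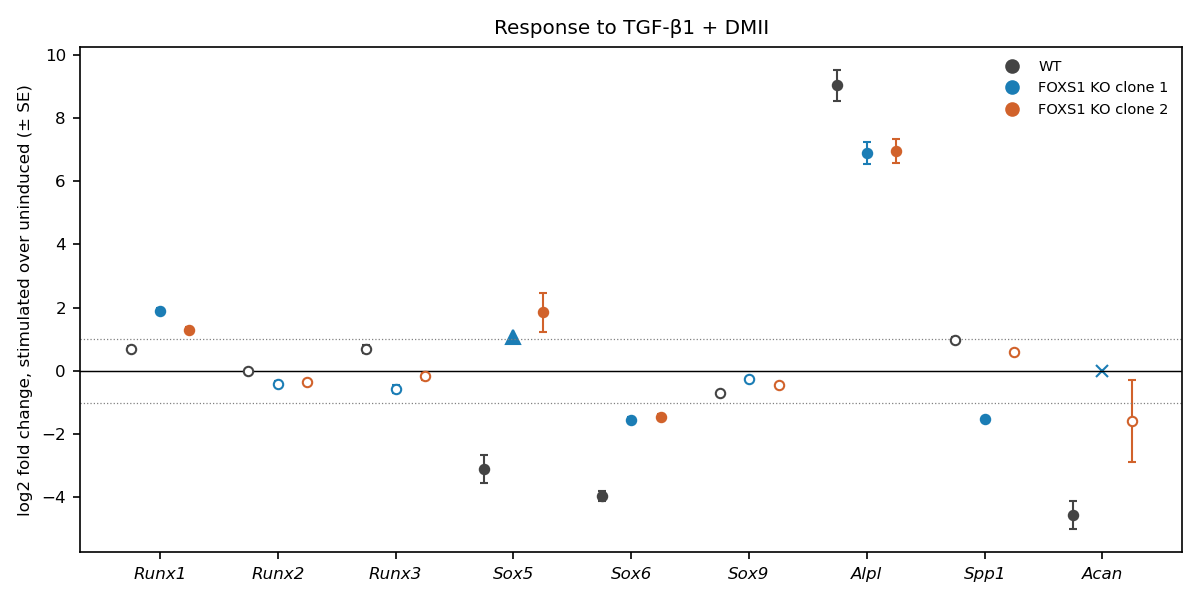
Log2 fold change of stimulated over uninduced cells, with its SE, for the 9 genes that passed the filter. Filled circles are called and open circles are not, dotted lines mark a change of 2-fold, the triangle is the smallest change that a group without counts allows, and the cross marks *Acan* in clone 1, which had no counts. *Alpl* stands above 6 in all genotypes, and *Sox5* and *Spp1* point in opposite directions in WT cells and clone 1.

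The RUNX genes are described first, as the transcription factors nearest to the bone fate. *Runx1* (chromosome 16 of GRCm38, 92601466 to 92826149, minus strand) is best known from blood formation and is also active in early chondrocytes. In uninduced cells the 3 libraries had 45.4, 39.7 and 35.9 CPM in WT, 19.8, 21.4 and 24.1 in clone 1, and 45.3, 45.6 and 44.2 in clone 2. After stimulation they had 61.9, 72.9 and 59.6 CPM in WT, 76.2, 90.3 and 74.2 in clone 1, and 106, 110 and 119 in clone 2. Uninduced clone 1 lay below every other library and stimulated clone 2 above every other, while uninduced WT and clone 2 overlapped.

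*Runx1* rose 3.69-fold in clone 1 (log2 1.88 ± 0.09 SE, edgeR adjusted p = 1.54e-15) and 2.48-fold in clone 2 (1.31 ± 0.09, adjusted p = 7.35e-13). In WT the log2 fold change was 0.69 ± 0.09 (edgeR adjusted p = 2.1e-07), under the fold threshold. The response of clone 1 exceeded that of WT by 1.19 ± 0.13 on the log2 scale (edgeR adjusted p = 3.39e-08), and that of clone 2 by 0.62 ± 0.13 (adjusted p = 0.000322), which was not called. Uninduced, clone 1 was 2.07-fold lower than clone 2 (edgeR adjusted p = 9.78e-10). That call sits next to the fold threshold. Without replicate 1 of uninduced clone 1 the log2 fold change was -0.99 (edgeR adjusted p = 3.76e-08), just under it. Genes on chromosome 16 as a whole had a median log2 fold change of 0.39 uninduced and 0.42 stimulated in clone 2 against WT, and 0.12 and 0.13 in clone 1. Other chromosomes also had shifted medians in the comparisons of a clone with WT. They were 0.43 to 0.46 on chromosome 15 (*Sp7*), -0.27 to -0.22 on chromosome 4 (*Runx3*, *Alpl*) and -0.23 to -0.16 on chromosome 5 (*Spp1*). On chromosome 6 (*Sox5*) they were -0.17 to -0.14, and on chromosome 17 (*Runx2*) -0.24 to 0.16. Chromosomes 7 (*Sox6*, *Acan*) and 11 (*Sox9*) had -0.04 to 0.09. The part of these shifts in the values of *Runx1* and the other genes was not tested.

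*Runx2* (chromosome 17, 44495987 to 44814797, minus strand), the osteoblast factor, was the steadiest of the RUNX genes. Uninduced libraries had 71.5, 57.0 and 53.7 CPM in WT, 69.3, 78.3 and 64.9 in clone 1 and 74.0, 68.2 and 73.6 in clone 2. Stimulated libraries had 58.7, 62.7 and 58.1 CPM in WT, 49.1, 55.4 and 55.7 in clone 1 and 53.7, 55.9 and 59.0 in clone 2. Neighbouring groups overlapped throughout the order of the 6 means. Its response was -0.02 ± 0.08 in WT (log2, edgeR adjusted p = 0.882), -0.40 ± 0.08 in clone 1 (adjusted p = 0.000171) and -0.36 ± 0.08 in clone 2 (adjusted p = 0.000716), none of them past the fold threshold. Exons of the antisense gene *Runx2os1* cover 5.87% of its exonic bases and had 4 to 64 counts a library, and the strand setting of the counting is not given in the sources used here.

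*Runx3* (chromosome 4, 135120652 to 135177990, plus strand), which acts with RUNX2 in chondrocyte maturation, had responses of different sign across genotypes. WT libraries had 9.67, 7.55 and 9.72 CPM uninduced and 14.9, 14.5 and 14.6 stimulated. Clone 1 had 11.5, 11.9 and 10.9 CPM and then 8.36, 7.74 and 7.01, and clone 2 had 9.41, 9.70 and 11.5 and then 9.30, 9.81 and 8.06. All stimulated WT libraries lay above every library of the other groups. The response was 0.70 ± 0.13 in WT, -0.57 ± 0.13 in clone 1 and -0.16 ± 0.13 in clone 2 on the log2 scale, none called. The difference in response between clone 1 and WT was called (-1.27 ± 0.18, edgeR adjusted p = 1.59e-06), and that between clone 2 and WT was under the fold threshold (-0.87 ± 0.18, adjusted p = 0.000378).

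The promoters of these 3 genes are shown because the 3 genes gave different responses while their start regions share a sequence. RefSeq promoters on GRCm38.p6, 250 bases before to 50 after a transcript start, held 17 entries for 8 of the 10 genes, and *Sox9* and *Sp7* had no entry. The upstream entries of *Runx1* and *Runx3* and the only entry of *Runx2* follow, 5′ to 3′, with capitals at matches to TGTGGT, the core bound by runt domain proteins, or its reverse complement ACCACA. They lie at chr16:92826025-92826324 (minus strand), chr17:44814578-44814877 (minus) and chr4:135120395-135120694 (plus).
Runx1: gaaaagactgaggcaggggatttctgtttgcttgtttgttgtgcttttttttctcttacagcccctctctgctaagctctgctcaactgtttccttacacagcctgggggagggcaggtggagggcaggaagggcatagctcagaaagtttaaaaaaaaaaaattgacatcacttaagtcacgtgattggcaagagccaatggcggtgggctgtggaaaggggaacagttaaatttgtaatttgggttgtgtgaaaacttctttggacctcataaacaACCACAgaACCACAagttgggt
Runx2: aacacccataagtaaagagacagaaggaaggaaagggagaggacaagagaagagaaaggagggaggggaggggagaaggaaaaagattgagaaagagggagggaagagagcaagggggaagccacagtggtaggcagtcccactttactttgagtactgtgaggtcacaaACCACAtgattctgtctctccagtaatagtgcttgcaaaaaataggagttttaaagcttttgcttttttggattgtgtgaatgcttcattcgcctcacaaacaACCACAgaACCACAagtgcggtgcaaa
Runx3: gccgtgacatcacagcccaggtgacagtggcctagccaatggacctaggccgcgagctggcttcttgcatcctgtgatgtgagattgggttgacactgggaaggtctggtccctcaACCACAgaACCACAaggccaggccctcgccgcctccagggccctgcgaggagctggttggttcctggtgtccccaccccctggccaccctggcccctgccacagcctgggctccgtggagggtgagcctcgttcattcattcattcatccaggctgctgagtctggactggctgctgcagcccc
Each holds a pair of these matches 2 bases apart. The pattern ACCACANNACCACA, searched on both strands after these sequences had been read, occurred in 7 of 32851 RefSeq promoters of this length (0.0213%), 3 of them these entries. The single core occurred in 5506 of 32851 promoters (16.8%) and in 6 of the 17 entries of the 10 genes. A match is a string of letters and not a measured binding site.

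The SOX trio is described next. *Sox6* (chromosome 7, 115470872 to 116038796, minus strand), a partner of SOX5 in cartilage, was higher in both clones in both treatments and fell on stimulation in all genotypes. WT libraries had 16.3, 13.0 and 12.0 CPM uninduced and 0.929, 0.734 and 0.992 stimulated. Clone 1 had 48.7, 51.1 and 48.8 CPM and then 15.7, 16.3 and 18.1. Clone 2 had 75.8, 74.4 and 69.6 CPM and then 24.4, 29.0 and 26.3. Even when stimulated, the clones were not below uninduced WT cells: clone 2 lay above them and clone 1 overlapped them.

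Against WT, *Sox6* was 3.62-fold higher in clone 1 (log2 1.86 ± 0.10, edgeR adjusted p = 4.84e-16) and 5.36-fold higher in clone 2 (2.42 ± 0.10, adjusted p = 6.11e-19) when uninduced. Stimulated, the differences were 18.9-fold (4.24 ± 0.15, edgeR adjusted p = 3.31e-20) and 29.9-fold (4.90 ± 0.15, adjusted p = 5.35e-22). The fall on stimulation was 15.4-fold in WT (log2 -3.94 ± 0.16, edgeR adjusted p = 3.96e-19), 2.96-fold in clone 1 (-1.57 ± 0.09, adjusted p = 9.46e-15) and 2.76-fold in clone 2 (-1.47 ± 0.09, adjusted p = 2.07e-14). It was smaller than in WT by 2.38 ± 0.20 in clone 1 (log2, edgeR adjusted p = 4.49e-11) and by 2.48 ± 0.20 in clone 2 (adjusted p = 1.76e-11). No exon of another gene overlaps its exons in GENCODE M21.

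*Sox6* has 6 RefSeq promoter entries, and the counts do not tell them apart. The entry at chr7:115824661-115824960 (minus strand) is shown because it alone among the 17 holds the SOX core AACAAT or its reverse complement ATTGTT, once each, beside 1 RUNX core, all in capitals.
Sox6: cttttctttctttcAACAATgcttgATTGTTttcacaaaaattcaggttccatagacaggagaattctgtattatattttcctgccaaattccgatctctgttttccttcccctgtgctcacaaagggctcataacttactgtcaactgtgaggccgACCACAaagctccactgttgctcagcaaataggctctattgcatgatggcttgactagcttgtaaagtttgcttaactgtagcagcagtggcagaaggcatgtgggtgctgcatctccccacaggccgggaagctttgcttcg
The SOX core occurred in 3521 of 32851 promoters (10.7%). The forkhead core GTAAACA or its reverse complement TGTTTAC, searched because FOXS1 is a forkhead protein, was in none of the 17 entries and in 3.65% of all promoters. No matches of these motifs overlapped in the sequences shown.

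*Sox5* (chromosome 6, 143828425 to 144781977, minus strand) went the other way and was all but lost from the clones. WT libraries had 6.70, 5.56 and 4.35 CPM uninduced (115, 106 and 114 counts) and 0.685, 0.648 and 0.586 stimulated (14, 15 and 13 counts). Clone 1 had no count in its 3 uninduced libraries, where 3 counts over the group would be 0.0522 CPM, and 0, 4 and 4 counts when stimulated. Clone 2 had 5, 5 and 2 counts uninduced and 16, 6 and 5 stimulated. Uninduced WT stood above all other groups, and stimulated WT and clone 2 overlapped.

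Uninduced *Sox5* was at least 106-fold lower in clone 1 than in WT, taking 3 counts over the group as its upper limit (edgeR adjusted p = 2.36e-10), and 36.7-fold lower in clone 2 (log2 -5.20 ± 0.53, adjusted p = 2.67e-09). Stimulated, clone 1 was 5.27-fold lower (-2.40 ± 0.63, edgeR adjusted p = 0.00175), while clone 2 differed by -0.25 ± 0.52 (adjusted p = 0.718). Stimulation lowered *Sox5* 8.57-fold in WT (-3.10 ± 0.45, edgeR adjusted p = 8.26e-07). It raised the few counts of clone 1 by at least 2.11-fold (edgeR adjusted p = 0.0184) and those of clone 2 by 3.61-fold (1.85 ± 0.62, adjusted p = 0.0127). The rise in clone 1 lost its call without replicate 3 of its stimulated cells (log2 3.99, edgeR adjusted p = 0.0537). The rise in clone 2 lost it without replicate 1 of its uninduced (1.59, adjusted p = 0.0715) or stimulated cells (1.24, adjusted p = 0.162). The antisense gene *Sox5os1*, whose exons cover 9.25% of the exonic bases of *Sox5*, had 0 counts in the 18 libraries.

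The difference in response from WT was called for *Sox5* in clone 2 (log2 4.95 ± 0.76, edgeR adjusted p = 7.57e-06) and in clone 1 (7.50 ± 1.52, adjusted p = 0.000283), where the fitted size depends on how a group of 0 counts is handled and is no bound. The clones also differed from each other, by at least 2.87-fold uninduced (edgeR adjusted p = 0.0117) and by 4.44-fold stimulated (adjusted p = 0.00888), with clone 1 lower. The stimulated difference was not called without replicate 1 of stimulated clone 2 (log2 -1.52, edgeR adjusted p = 0.118).

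*Sox9* (chromosome 11, 112782224 to 112787760, plus strand), the chondrocyte commitment factor, was abundant in all groups. Uninduced libraries had 475, 429 and 424 CPM in WT, 538, 544 and 542 in clone 1 and 567, 536 and 530 in clone 2. Stimulated libraries had 275, 289 and 250 CPM in WT, 443, 472 and 447 in clone 1 and 399, 400 and 390 in clone 2. Stimulated WT cells lay below every other library, and each genotype had lower values after stimulation without overlap. The response was -0.71 ± 0.05 in WT, -0.25 ± 0.05 in clone 1 and -0.46 ± 0.05 in clone 2 on the log2 scale, each with an edgeR adjusted p of 7.04e-05 or less and each under the fold threshold. Against WT the stimulated clones differed by 0.74 ± 0.05 and 0.54 ± 0.05 (clones 1 and 2, edgeR adjusted p = 1.1e-13 and 1.28e-10), also under it.

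*Acan* (chromosome 7, 79053483 to 79115099, plus strand), the aggrecan core protein gene and a target of the SOX trio, was detected mainly in uninduced WT cells. WT libraries had 10.1, 8.28 and 7.93 CPM uninduced (173, 158 and 208 counts) and 0.196, 0.432 and 0.451 stimulated (4, 10 and 10 counts). None of the 6 clone 1 libraries had a count, so 3 counts set upper limits of 0.0522 CPM uninduced and 0.0442 CPM stimulated. Clone 2 had 3, 0 and 3 counts uninduced and 1, 0 and 0 stimulated. No clone library overlapped WT in either treatment.

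*Acan* fell 23.7-fold with stimulation in WT (log2 -4.57 ± 0.44, edgeR adjusted p = 1.54e-09). Uninduced, it was at least 168-fold lower in clone 1 than in WT (edgeR adjusted p = 2.82e-11) and 113-fold lower in clone 2 (-6.82 ± 0.54, adjusted p = 5.09e-11). Stimulated, it was at least 8.13-fold lower in clone 1 (edgeR adjusted p = 0.000114), and the ratio of WT to clone 2 was 18.2 from 24 counts against 1 (95% counting interval 2.96 to 747, edgeR adjusted p = 0.00189). A response could not be measured in clone 1, and in clone 2 the ratio of uninduced to stimulated was 3.53 from 6 counts against 1 (95% counting interval 0.428 to 162, edgeR adjusted p = 0.315). These intervals and limits cover counting error only.

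**Figure D3:**
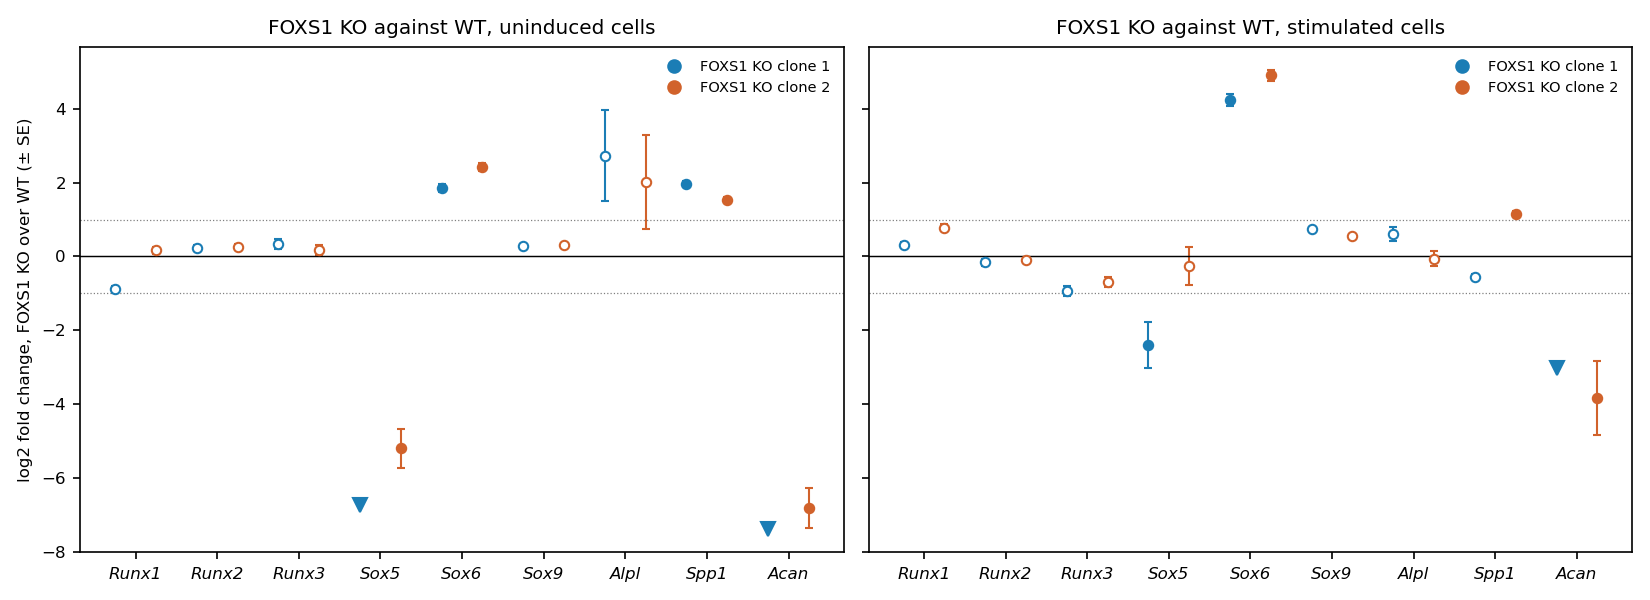
Log2 fold change of each clone over WT, with its SE, in uninduced (left) and stimulated cells (right). Filled circles are called and open circles are not, triangles are the smallest change that a group without counts allows, and dotted lines mark a change of 2-fold. *Sox6* lies between 1.86 and 4.90 and *Acan* below -3 in all comparisons, whereas *Spp1* is above 1 in all but stimulated clone 1.

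*Sp7* (chromosome 15, 102356606 to 102367182, minus strand), the osteoblast factor downstream of RUNX2, had 0 to 11 counts a library. Its group means ran from 0.0604 CPM in uninduced WT to 0.338 CPM in stimulated clone 1, and neighbouring groups overlapped throughout the order. In a fit without the filter its response was 0.97 ± 1.29 in WT, 1.45 ± 1.16 in clone 1 and 1.23 ± 1.27 in clone 2 (log2, edgeR adjusted p = 0.66, 0.413 and 0.566). A difference between groups was not detectable at this depth.

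*Alpl* (chromosome 4, 137741733 to 137796384, minus strand), tissue-nonspecific alkaline phosphatase, went from near absence to clear expression in every genotype. Uninduced libraries held 0, 0 and 1 counts in WT, 2, 0 and 6 in clone 1 and 4, 0 and 3 in clone 2. Stimulated libraries had 12.5, 12.3 and 9.51 CPM in WT, 19.2, 16.7 and 16.2 in clone 1 and 10.1, 9.22 and 13.6 in clone 2. Stimulated WT and clone 2 overlapped, and clone 1 lay above both.

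The ratio of stimulated to uninduced *Alpl* in WT was 713 from 751 counts against 1 (95% counting interval 128 to 28212, edgeR adjusted p = 6.3e-16). The edgeR fold in WT, the measure given for the clones next, was 525 (log2 9.04 ± 0.48) and rests on that 1 count. The gene rose 120-fold in clone 1 (log2 6.90 ± 0.35, edgeR adjusted p = 2.39e-16) and 124-fold in clone 2 (6.95 ± 0.37, adjusted p = 6.46e-16). The differences in response from WT did not pass the test (-2.13 ± 1.24 and -2.08 ± 1.28 log2 for clones 1 and 2, edgeR adjusted p = 0.205 and 0.241). In stimulated cells clone 1 stood 0.60 ± 0.19 above WT (edgeR adjusted p = 0.00809), under the fold threshold. Uninduced, 8 counts in clone 1 against 1 in WT gave a ratio of 8.70 (95% counting interval 1.17 to 386, edgeR adjusted p = 0.0599).

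*Spp1* (chromosome 5, 104435118 to 104441050, plus strand), osteopontin, was the one gene of the 9 whose response differed by call between the clones. Uninduced libraries had 133, 159 and 149 CPM in WT, 579, 552 and 594 in clone 1 and 438, 425 and 409 in clone 2. Stimulated libraries had 253, 329 and 287 CPM in WT, 202, 199 and 196 in clone 1 and 576, 683 and 663 in clone 2. Both clones lay above WT without overlap before stimulation, and after it clone 1 lay below WT and clone 2 above.

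Uninduced, *Spp1* was 3.91-fold higher in clone 1 (log2 1.97 ± 0.08, edgeR adjusted p = 5.2e-14) and 2.89-fold higher in clone 2 (1.53 ± 0.08, adjusted p = 2.54e-12). On stimulation it fell 2.89-fold in clone 1 (-1.53 ± 0.08, edgeR adjusted p = 1.64e-12), while the log2 fold change was 0.98 ± 0.08 in WT (adjusted p = 1.8e-09) and 0.59 ± 0.08 in clone 2 (adjusted p = 1.87e-06). The WT value sits next to the fold threshold and was past it without replicate 2 of uninduced WT (1.04), or without replicate 1 or 3 of stimulated WT. The response of clone 1 differed from that of WT by -2.51 ± 0.11 (edgeR adjusted p = 4.99e-13) and from that of clone 2 by -2.13 ± 0.11 (adjusted p = 4.82e-11). Stimulated clone 2 was 2.21-fold above WT (1.14 ± 0.08, edgeR adjusted p = 1.44e-10) and 3.22-fold above clone 1 (clone 1 minus clone 2 -1.69 ± 0.08, adjusted p = 8.92e-13). Exons of *Gm42793*, on the same strand, cover 18.8% of its exonic bases and had 0 to 7 counts a library.

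The promoter of *Spp1* at chr5:104434861-104435160 (plus strand) is shown because osteopontin is a known target of RUNX2, and it holds 1 RUNX core, in capitals.
Spp1: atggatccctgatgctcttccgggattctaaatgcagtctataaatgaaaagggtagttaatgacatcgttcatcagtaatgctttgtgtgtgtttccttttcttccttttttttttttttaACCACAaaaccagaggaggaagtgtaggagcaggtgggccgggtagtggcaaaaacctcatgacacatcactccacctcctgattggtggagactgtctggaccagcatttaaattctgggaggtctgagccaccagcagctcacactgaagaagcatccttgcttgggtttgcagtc
*Runx2* levels moved by less than 2-fold in all the comparisons in which *Spp1* was called. Among these comparisons, *Runx1* and *Runx3* were called in the difference in response between clone 1 and WT, and *Runx1* also in the response of clone 1. The part of any RUNX protein in the *Spp1* values was not tested.

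Per kilobase of gene length, the scale on which levels of different genes can be set side by side, *Sox9* (107 CPM per kb) and *Spp1* (89.2) led in uninduced WT cells. *Runx2* (6.87), *Runx1* (3.35), *Runx3* (1.79), *Acan* (1.17), *Sox6* (0.929) and *Sox5* (0.385) followed, and *Sp7* (0.0178) and *Alpl* (0.00315) were last. In stimulated WT cells *Spp1* (176 CPM per kb) stood above *Sox9* (65.7), and *Alpl* (2.83) came close to *Runx3* (2.93). In stimulated clone 2 *Spp1* reached 389 CPM per kb against 95.8 for *Sox9*.

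**Figure D4:**
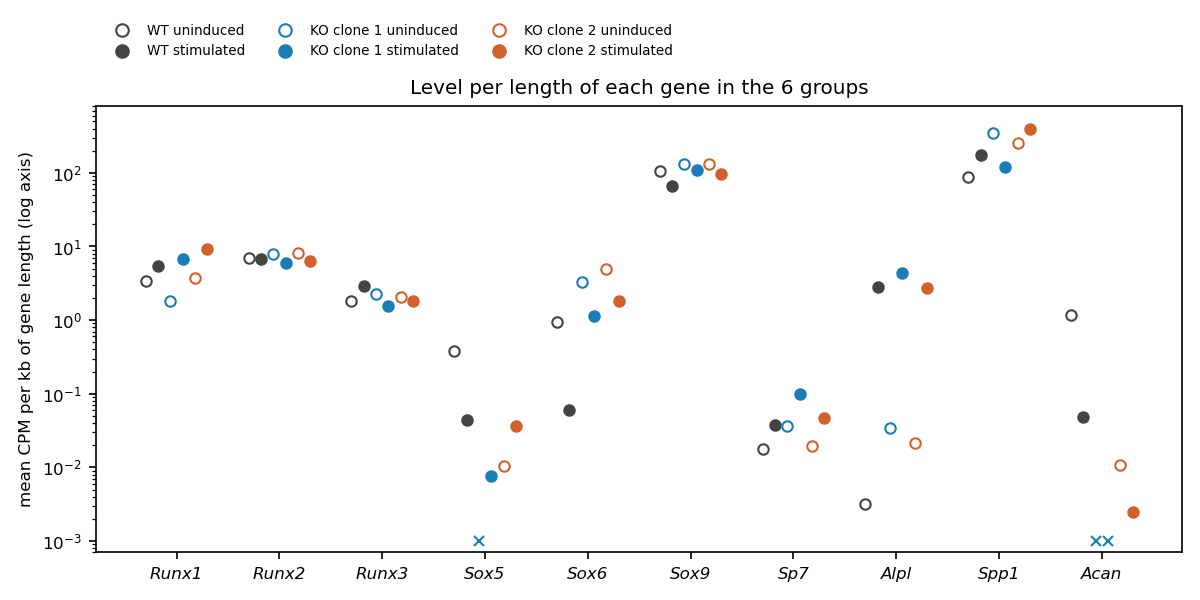
Mean CPM per kb of gene length (log axis) of the 10 genes in the 6 groups, 3 libraries each, open for uninduced and filled for stimulated cells. Crosses at the lower edge mark groups without a count. *Sox9* and *Spp1* lie at 65.7 CPM per kb or above in all groups, and *Alpl* lies near the bottom in uninduced and near the RUNX genes in stimulated cells.

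The genes whose log2 CPM across the 18 libraries followed each of the 9 genes most closely were taken from 10058 or 10059 genes averaging 5 CPM or more. *Cd82* had a Pearson r of 0.993 with *Sox6*, *Fibcd1* 0.993 with *Acan*, *P4ha3* 0.987 with *Alpl*, *Mtss1l* 0.982 with *Sox9* and *Csf1* 0.965 with *Spp1*. The values were lower for *Runx1* (*Sbno2*, 0.959), *Sox5* (*Tcp11l2*, 0.948), *Runx3* (*Olfml3*, 0.901) and *Runx2* (*Setbp1*, 0.882). The points share 6 groups and the treatment, so these are descriptions of likeness over libraries.

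Lists of other genes of the 2 lineages place the 10 genes among their neighbours. Of 21 cartilage matrix genes 18 were tested, and stimulation lowered 14 in WT, 10 in clone 1 and 11 in clone 2 while raising 1, 2 and 2 (lower calls over all genes 13.6%, 10.7% and 11.2%). Their median log2 fold change was -2.97 in WT, -2.36 in clone 1 and -3.63 in clone 2, and -2.86, -1.66 and -3.07 with genes without counts at their bound. *Acan* in WT moved the same way as these. The gene raised in all 3 was *Prg4* (lubricin, of the joint surface), with a log2 fold change of 9.63 ± 0.16, 6.99 ± 0.14 and 8.09 ± 0.14. *Col2a1*, the main collagen of cartilage, rose in clone 1 (1.33) and clone 2 (1.06) and had 0.42 in WT, uncalled. *Prg4* and *Col2a1* were named after their values had been seen. The 6 chondrocyte markers (*Sox9*, *Acan*, *Col2a1*, *Col9a1*, *Matn1* and *Hapln1*) were also summed. Uninduced sums were 1155 to 1303 CPM in WT, 945 to 973 in clone 1 and 1568 to 1656 in clone 2. Stimulated sums were 1105 to 1253, 1431 to 1537 and 2500 to 2678 CPM in the same order. By gene, stimulation lowered 4 of the 6 in WT, 2 in clone 1 and 3 in clone 2. It raised 0 in WT and 1 in each clone, *Col2a1* (higher calls over all genes 6.25%, 5.95% and 6.46%). The larger sums of the stimulated clones therefore do not stand for the 6 markers as a set.

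Against WT, 11 of the 18 cartilage matrix genes were lower and 3 higher in uninduced clone 1, and 7 lower and 3 higher in uninduced clone 2. Over all genes 8.73% were lower and 6.32% higher in clone 1, and 9.56% and 5.54% in clone 2. In stimulated cells 8 were lower and 2 higher in clone 1, against 9.60% and 9.42% of all genes, and 6 lower and 4 higher in clone 2, against 8.94% and 7.95%. *Cytl1*, a cytokine-like protein of cartilage, had 2.20 ± 0.542 CPM in stimulated WT, 0.317 ± 0.0944 in clone 1 and 0.178 ± 0.218 in clone 2 (log2 -2.80 ± 0.35 and -3.56 ± 0.43). *Col9a2*, a chain of collagen IX, had 130 counts in stimulated WT against 1 in each clone. *Ucma* and *Comp* went the other way, *Comp* (a matrix protein of cartilage and tendon) by 2.14 ± 0.23 and 1.71 ± 0.23. *Ucma*, a cartilage protein that binds calcium, had 2 counts in stimulated WT, 320 in clone 1 and 31 in clone 2.

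**Figure D5:**
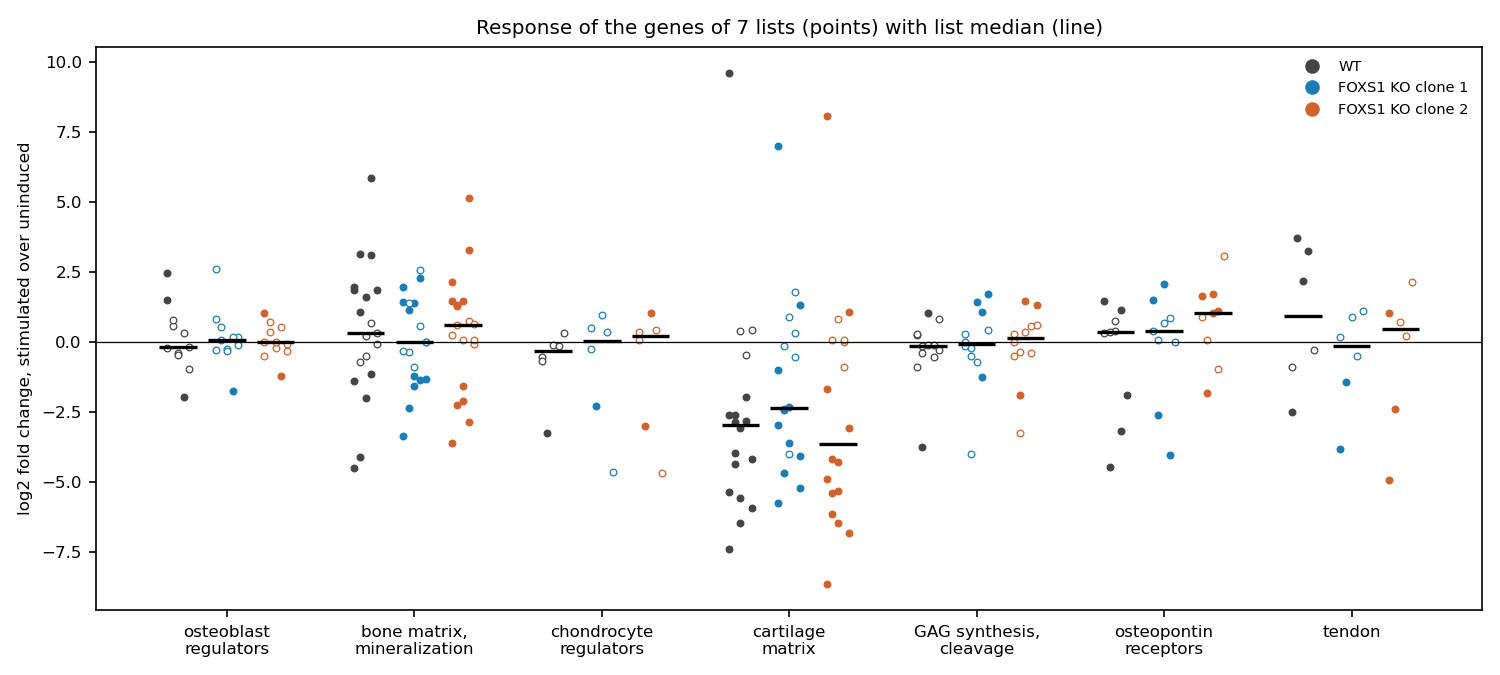
Log2 fold change of stimulated over uninduced cells for the tested genes of 7 lists (points), filled where called, with the list median as a line, in WT (grey), clone 1 (blue) and clone 2 (orange). GAG is glycosaminoglycan. The cartilage matrix medians lie between -2.36 and -3.63 and those of the other lists between -0.34 and 1.02.

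The list of bone matrix and mineralization genes, 19 of 23 tested, was divided. Stimulation raised 8, 5 and 6 and lowered 5, 6 and 5 (WT, clone 1, clone 2), with medians of 0.31, -0.01 and 0.60. Over all genes the same comparisons called 6.25%, 5.95% and 6.46% higher and 13.6%, 10.7% and 11.2% lower. In stimulated clone 1, 2 were higher and 4 lower than in WT (9.42% and 9.60% of all genes), and in clone 2, 2 were higher and 6 lower (7.95% and 8.94%). *Mgp*, an inhibitor of mineral deposition, had 69.3 ± 6.82 CPM in stimulated WT, 367 ± 13.3 in clone 1 and 524 ± 17.2 in clone 2. *Pdpn* (podoplanin, of early osteocytes) was lower, with 245 ± 6.63, 51.7 ± 2.49 and 98.8 ± 5.29 CPM, as was the parathyroid hormone receptor gene *Pth1r* (1.64 ± 0.412, 0.593 ± 0.499 and 0.416 ± 0.319 CPM). The osteocalcin copy *Bglap2*, whose reads may be shared with *Bglap* and *Bglap3*, had 1 count in stimulated WT, 11 in clone 1 and 45 in clone 2. Its level was higher in uninduced clone 2 than in these stimulated groups.

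Of 13 osteoblast regulators 11 were tested, and stimulation changed 3 in WT (2 higher, 1 lower), 1 in clone 1 (lower) and 2 in clone 2 (1 higher, 1 lower), counts near the 19.9%, 16.7% and 17.7% of all genes called. In uninduced cells 1 was higher and 2 lower in each clone than in WT (15.1% of all genes were called in each), and in stimulated cells 1 was higher and 2 lower in clone 1 and 2 lower in clone 2 (19.0% and 16.9% of all genes). *Prrx1*, a limb mesenchyme factor, had 1035 ± 26.9 CPM in stimulated WT, 402 ± 19.5 in clone 1 and 623 ± 31.9 in clone 2. *Atf4*, which works with RUNX2 in osteoblasts, rose from 104 ± 1.21 to 296 ± 14.0 CPM in WT and from 224 ± 4.63 to 457 ± 18.8 CPM in clone 2. In clone 1 a rise of *Atf4* was not called. *Msx2*, named after its values were seen, had 581 counts in stimulated WT, 2 in clone 1 and 0 in clone 2.

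Chondrocyte regulators (6 of 10 tested) gave 1 call in WT, 1 in clone 1 and 2 in clone 2 on stimulation, against 19.9%, 16.7% and 17.7% of all genes, and 2 were lower in each clone than in WT when uninduced (8.73% and 9.56% of all genes). When stimulated, 1 was lower in clone 1 and 2 in clone 2 (9.60% and 8.94% of all genes). The 2 most abundant, *Trps1* and *Arid5b*, were called in none of the comparisons of a clone with WT. Among 11 other SOX genes 5 were tested, and *Sox2* (named after its values were seen), *Sox8* and *Sox12* were lower in both clones in both treatments, 3 of 5 each time. Of all 14317 genes, 1298 were called in the same direction in both clones when uninduced and 1579 when stimulated. *Sox12*, a factor of the SOXC group, had 632 counts in stimulated WT, 0 in clone 1 and 3 in clone 2, and *Sox8*, a close relative of *Sox9*, had 220, 0 and 0 counts. *Sox12* (chromosome 2, 152393611 to 152398063) lies near the cut gene *Foxs1* (chromosome 2, 152931898 to 152933208). Whether the editing of that locus had a part in the *Sox12* values was not tested. Stimulation lowered *Sox12* in clone 2 and gave no other call among the 5 by edgeR. *Sox8* is also counted among the chondrocyte regulators.

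The 12 genes of glycosaminoglycan synthesis and aggrecan cleavage were all tested. Stimulation raised 1, 3 and 2 and lowered 1, 1 and 1 (WT, clone 1, clone 2). In all 2, 4 and 3 of the 12 were called, against 19.9%, 16.7% and 17.7% of all genes. Against WT 4 were lower in each clone uninduced (8.73% and 9.56% of all genes), and 4 lower and 1 higher in each clone stimulated (9.60% lower and 9.42% higher over all genes in clone 1, 8.94% and 7.95% in clone 2). The aggrecanase gene *Adamts5* had 90.1 ± 2.54 CPM in stimulated WT, 26.3 ± 2.86 in clone 1 and 28.5 ± 2.15 in clone 2, and *Adamts15*, also an aggrecan protease, had 35, 0 and 0 counts. *Csgalnact1*, which starts chondroitin sulphate chains, was higher (34.9 ± 2.1, 127 ± 6.71 and 101 ± 2.68 CPM). *Xylt1*, named after its values were seen, had 180 counts in stimulated WT and none in either clone in either treatment. Its enzyme attaches the first sugar of such chains to core proteins like aggrecan.

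All 9 osteopontin receptor genes were tested. Stimulation raised 2, 2 and 4 and lowered 3, 2 and 1 (WT, clone 1, clone 2), against 6.25%, 5.95% and 6.46% of all genes higher and 13.6%, 10.7% and 11.2% lower. In stimulated cells 2 were higher and 1 lower in each clone than in WT (9.42% and 9.60% of all genes in clone 1, 7.95% and 8.94% in clone 2). *Itgb3*, the integrin β3 chain, had 116 ± 2.79 CPM in stimulated WT, 339 ± 8.75 in clone 1 and 253 ± 14.2 in clone 2, and *Itga5* 278 ± 16.1, 603 ± 4.21 and 733 ± 13.1. Both integrin genes were higher than WT in both clones, whereas *Spp1* itself lay on opposite sides of WT. Uninduced, 1 was lower in clone 1 and 2 in clone 2 (8.73% and 9.56% of all genes).

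Of 7 tendon genes 6 were tested, as a neighbouring mesenchymal fate. Stimulation raised 3 in WT and 1 in clone 2 and lowered 1, 2 and 2 (WT, clone 1, clone 2), against 6.25% and 6.46% of all genes higher in WT and clone 2 and 13.6%, 10.7% and 11.2% lower. The stimulated clones had 4 and 5 of the 6 lower than WT, against 9.60% and 8.94% of all genes. The tendon factor *Scx* rose in WT (log2 3.25 ± 0.20, edgeR adjusted p = 4.11e-13) but had -0.49 ± 0.19 in clone 1 and 0.22 ± 0.17 in clone 2. *Fmod*, a small matrix proteoglycan, rose in WT (3.72 ± 0.12) and fell in clones 1 and 2 (-1.42 ± 0.12 and -2.39 ± 0.11). *Tnmd*, a marker of tendon cells, had 13.5 ± 1.47 CPM in stimulated WT, 0.447 ± 0.0376 in clone 1 and 0.391 ± 0.212 in clone 2, and *Thbs4*, a matrix protein, had 753, 3 and 1 counts. Of 9 skeletal muscle genes only *Des* was tested, with *Pax3* next at a mean of 0.0471 CPM, and *Myf5*, *Myf6*, *Pax7* and *Ckm* at 0 in all libraries. *Des* (desmin) fell with stimulation in all 3 genotypes (log2 -1.65 ± 0.71, -1.30 ± 0.50 and -1.91 ± 0.50) and was higher in both clones than in WT.

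Markers of fat cells moved with the groups as well. The 7 adipocyte markers summed to 51.1 to 53.6 CPM in stimulated WT, 177 to 200 CPM in stimulated clone 1 and 44.9 to 49.95 CPM in stimulated clone 2, with *Lep* at 0 in all libraries. In uninduced cells the sums were 136 to 144, 95.03 to 97.2 and 66.2 to 71.3 CPM. *Cebpa*, an adipogenic transcription factor with 47.6 CPM in stimulated WT and 24.0 CPM in stimulated clone 2, made up most of the WT sum. By gene, 6 of 6 tested markers were higher than WT in stimulated clone 1 (9.42% of all genes), and 3 of 6 were higher in stimulated clone 2 (7.95% of all genes), where *Cebpa* had a log2 fold change of -0.99 ± 0.07. *Pparg*, the master regulator of fat cell formation, had 4.18 ± 0.365 CPM in stimulated WT, 35.0 ± 1.49 in clone 1 and 20.1 ± 2.41 in clone 2, and the lipid droplet gene *Plin1* had 0, 538 and 31 counts. Stimulated clone 1 had both the highest sum of fat cell markers and the lowest *Spp1* of the stimulated groups. Their part in the values of the 10 genes was not tested.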

How the data were processed

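The data are bulk RNA-seq counts of 18 libraries of 10T1/2 cells. The authors prepared poly(A) libraries (Novogene), sequenced paired-end reads, mapped them with HISAT2 to mm10 (GRCm38) and deposited raw counts per gene without normalization. For the counting program, the annotation release and strandedness, the status is: not given in the sources used here. Per the labels, WT, clone 1 and clone 2 were each sampled uninduced and stimulated.

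Counts were filtered with filterByExpr (minimum count 10, by group), scaled with TMM and fitted with 1 mean for each of the 6 groups using glmQLFit (robust) and glmQLFTest in edgeR 4.0.16 (R 4.3.3, limma 3.58.1). Calls needed a Benjamini-Hochberg adjusted p over all 14317 tested genes under 0.05 with a log2 fold change beyond 1 in either direction. Where a group had no count, fold changes are bounds at 3 counts over the group. Ratios with 1 to 3 counts carry exact 95% intervals. Alternatives were DESeq2 1.42.0, its size factors, other filters, only the groups compared, a replicate block, no fold threshold, no TMM factors and each library left out. The procedure was tested on simulated data. Figures used Python 3.11.15 and matplotlib 3.10.9.

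The 10 genes and the lists of related genes were chosen with earlier results of these data known. List genes were named where called the same way in both clones in stimulated cells with a mean of at least 1 CPM (up to 4, by the smaller absolute log2 fold change), or else the 2 most abundant. Positions are those of the deposited table, and overlaps come from GENCODE M21. Within each group, libraries differed beyond counting error, so none was a repeat deposit. The labels reuse replicate numbers across groups, but same-numbered libraries deviated together with r of -0.04 to 0.05 only, so the numbers were not used as pairs.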

Additional observations from a re-analysis of the deposited data

Results flagged for a closer look

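The tests of the difference in response to TGF-β1 + DMII marked 8 results among the 10 genes. Between clone 1 and WT the response differed for *Runx1* by 1.19 on the log2 scale, for *Runx3* by -1.27, for *Sox5* by 7.50, for *Sox6* by 2.38 and for *Spp1* by -2.51 (edgeR adjusted p from 4.99e-13 to 0.000283). Between clone 2 and WT it differed for *Sox5* by 4.95 and for *Sox6* by 2.48 (edgeR adjusted p = 7.57e-06 and 1.76e-11). Between clone 1 and clone 2 it differed for *Spp1* by -2.13 (edgeR adjusted p = 4.82e-11). The *Sox5* value of clone 1 rests on a group without counts. Groups of 3 libraries were too small to test for outlying libraries.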

How the results depend on the processing

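Across 12 comparisons, the numbers of genes called were the same or within 1.5 times under the DESeq2 Wald test, DESeq2 size factors, both other filters and the replicate block. With the replicate block they stayed at 4, 5 and 4 for the responses of WT, clone 1 and clone 2, and it changed no call of the 10 genes. Same-numbered libraries were not pairs, and 4 of 18 libraries correlated best with their own number. Without the fold threshold, 8 genes were called for the responses of WT and clone 1, 7 for clone 2, 8 for clone 1 against WT in each treatment, 6 for stimulated clone 2 against WT, 7 for the response difference of clone 2, 4 and 6 for clone 1 against clone 2 (uninduced, stimulated), and 3 for their response difference. Dropping this threshold also adds calls among all tested genes, and their share is not given here. These larger counts therefore cannot be read as particular to the 10 genes. With only the groups compared, 1 gene was called between the clones in each treatment, because *Sox5* then failed the filter. Leaving out each library in turn gave 4 to 5 genes for WT, 4 to 5 for clone 1 and 3 to 4 for clone 2, 4 to 5 for uninduced clone 1 against WT, and 1 to 3 (uninduced) and 1 to 2 (stimulated) between the clones.

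Over 104 gene results, 24 of 2588 alternative values changed sign, all of uncalled changes. *Runx2* in WT was 0.025 without a filter and -0.10 to 0.11 with a library left out. Leaving out libraries gave -0.88 to 0.036 for *Sox5* and -0.24 to 0.048 for *Alpl* in stimulated clone 2 against WT. Between uninduced clones it gave -0.10 to 0.034 for *Runx2*, -0.032 to 0.020 for *Sox9* and -0.61 to 1.26 for *Alpl*, and in their response difference -0.11 to 0.031 for *Runx2* and -0.60 to 1.27 for *Alpl*. *Alpl* in uninduced clone 1 against WT became called with DESeq2 (2.99, adjusted p = 0.0401). Without TMM factors, the median of all genes in the responses was -0.26 to -0.31, and 3 of 82 ratios between group means of the 10 genes changed sign, all between the clones and near 0. Of 108 counts of list genes called, 105 with DESeq2, 97 without a filter, 107 with the replicate block and 98 without replicate 1 of uninduced WT lay within 1.5 times the reported count. Depth limits *Sp7*, uninduced *Alpl* and the clone values of *Sox5* and *Acan*. The causes of these changes were not otherwise tested.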
